A study of Mus musculus with 8 samples.

Results

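The enzymes described here take part in the making and recycling of purine nucleotides. They are *Pnp*, *Nme1*, *Nme2*, *Ppat*, *Paics*, *Gart*, *Atic* and *Impdh2*, that is 8 of the 27998 genes in the count tables, and they were found by their symbols, with 1 row each. They were chosen by their time course in these same data, in which *Nme2* stood far lower at 72 h than before. The 72 h values of *Nme2* are therefore given as a description with no test, and counts at 72 h are over the other 7 genes. The other counts and p-values of the 8 genes come from the same data and do not test them as a set. All 8 passed the filter on low counts in the sum over all cells and in each of 5 cell classes.

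Purine nucleotides are built step by step on ribose phosphate until inosine monophosphate is reached, from which AMP and GMP branch off. *Ppat* encodes the amidotransferase of the committed first step, *Gart* and *Paics* encode multifunctional enzymes of the middle of the route, and *Atic* encodes the enzyme that closes the ring. *Impdh2* encodes the dehydrogenase that turns inosine monophosphate toward GMP, *Pnp* encodes the phosphorylase that splits inosine and guanosine in salvage, and *Nme1* and *Nme2* encode nucleoside diphosphate kinases that pass phosphate to the final triphosphates. In the bone marrow, quiescent stem cells and dividing progenitors differ in their need for nucleotides, and an inherited lack of PNP is known for its loss of T cells.

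Single-cell RNA was measured in 16 mice, 4 for each of control, 3 h, 24 h and 72 h. All were wildtype and 12 to 14 weeks old. Treated mice had received a single subcutaneous dose of IFNα, 50000 IU per 20 g of body weight, and controls had received 100 µl of PBS. The cells were Lin- c-Kit+ (LK) bone marrow cells to which additional LK CD150+ CD48- CD34- cells, a gate for HSCs, had been added. The share of HSCs was therefore set in part by the sort. The 4 mice of a time point were marked by hashtag antibodies and shared a droplet library, so that time point and library cannot be told apart. No label says whether the mice of a time point were treated on separate days, so p-values measure the spread between these mice.

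After removal of hashtag multiplets and negatives, of cells with under 700 genes and of those with over 5% mitochondrial UMIs, 2474 control cells, 1661 cells at 3 h, 3462 at 24 h and 2449 at 72 h were kept. Each pair of libraries shared at most 1 kept barcode. The UMIs of a mouse ranged from 1102706 to 26446327, where the lowest value belongs to control mouse 4 with 58 cells and the next lowest mouse had 4903401. A cell held a median of 12017 UMIs at 3 h and 14763 at 72 h, against 18964.5 in control and 18953.5 at 24 h, and 422 of the 2454 barcodes at 3 h were hashtag negatives. Clustering of the control cells gave 15 clusters, of which 10 were joined by fixed markers into HSC-like, LMPP-like, myeloid progenitor-like, erythroid progenitor-like and MK progenitor-like classes, which held 8453 of the 10046 kept cells. The share of myeloid progenitor-like cells was 27.6 to 30.7% in the control mice, 12.3 to 18.8% at 3 h, 18.04 to 22.1% at 24 h and 13.1 to 18.5% at 72 h. The *S100a8*-high cluster of this class held 190, 19, 62 and 37 cells in this order. HSC-like cells made up 14.5 to 20.7% in the control mice and 26.4 to 37.2% at 3 h. They made up 21.7 to 25.8% at 24 h and 27.6 to 31.9% at 72 h. In sums over all cells, a change in this mix and a change within cells cannot be told apart. For the 8 genes, the values with every cluster held at its control share are given where they differ. No such values are given for other genes. A list of 8 interferon-induced genes rose at 3 h and 24 h with 8 of 8 members, which checks the labels of these time points. At 72 h 1 of the 8 rose and 1 fell. Their summed level was then 48.9 to 55.4 CPM, within the 45.6 to 140.9 CPM of control, so over all cells this list does not check the 72 h label. In HSC-like cells 5 of the 8 fell and 0 rose at 72 h. Their summed level there was 70.7 to 101.6 CPM, against 114.8 to 193.2 CPM in control. LMPP-like cells had 3 falls and 1 rise, myeloid progenitor-like cells 1 rise, and the other classes no called change.

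On the mouse genome (RefSeq on GRCm38.p6) the genes lie on 6 chromosomes. *Nme1* (chr11:93958925-93968272) and *Nme2* (chr11:93949814-93956256) are neighbours on the minus strand of chromosome 11. *Ppat* (chr5:76913249-76951578, minus strand) and *Paics* (chr5:76951302-76967509, plus strand) run away from each other on chromosome 5 with their first bases 276 bases apart, so that their ends overlap. *Pnp* lies at chr14:50944303-50953412 on the plus strand beside its close relative *Pnp2* (chr14:50956141-50964751), *Gart* at chr16:91621395-91646972 on the minus strand, *Atic* at chr1:71557156-71579403 and *Impdh2* at chr9:108560436-108565577, both on the plus strand.

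Promoter sequence is shown because genes of purine synthesis are textbook targets of Myc, which binds the E-box CACGTG, and because the response to IFNα runs through factors that bind the interferon-stimulated response element, searched by its core of GAAA, any 2 bases and GAAA. In the 250 bases before the annotated starts, searched on both strands, the E-box occurred in *Nme1*, *Paics*, *Atic* and *Impdh2*, which is 4 of the 8 genes, against 6.86% of 27025 genes in RefSeq with such a window. The response element core occurred in 0 of the 8 genes, against 3.46% of all. These are matches of letters and not measured binding sites. The 30 bases around each E-box follow in 5′ to 3′ direction on the strand of the gene, with the E-box in capitals, first at the 2 annotated starts of *Nme1* (chr11:93968273-93968302 and chr11:93968037-93968066), then for *Paics* (chr5:76951087-76951116), *Atic* (chr1:71557137-71557166) and *Impdh2* (chr9:108560314-108560343).
Nme1 outer start: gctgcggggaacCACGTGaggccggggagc
Nme1 inner start: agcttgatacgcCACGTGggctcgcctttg
Paics: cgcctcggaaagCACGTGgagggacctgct
Atic: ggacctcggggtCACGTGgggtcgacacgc
Impdh2: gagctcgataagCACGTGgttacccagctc

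*Pnp*, the gene with the strongest early change, has neither motif in its 250 bases (chr14:50944053-50944302, plus strand, 46.8% G and C), which are printed to let this be read from the letters.
Pnp: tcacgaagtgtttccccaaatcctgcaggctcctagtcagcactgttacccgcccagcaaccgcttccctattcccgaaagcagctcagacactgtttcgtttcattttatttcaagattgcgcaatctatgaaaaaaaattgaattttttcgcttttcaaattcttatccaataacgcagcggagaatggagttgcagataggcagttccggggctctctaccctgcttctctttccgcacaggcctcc

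The end of the *Nme2* transcript (chr11:93949814-93949843, minus strand, GENCODE vM21) is shown because the kit reads the 3′ ends of transcripts and because *Nme2* shares this end with *Gm20390*, an annotated read-through of *Nme1* and *Nme2*. Capitals mark the 5 bases that belong to *Nme2* alone.
Nme2 end: ttctaaaacaataaagactttggaaCTGAG

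Levels are given as CPM, that is UMIs scaled to equal library sizes with edgeR's TMM factors, as the mean ± SD over mice. Changes are log2 fold changes from edgeR's quasi-likelihood fit over all 16 mice ± SE, and a change was called with an adjusted p (Benjamini-Hochberg over all genes tested) under 0.05. Because the 8 genes were chosen by their time course in these data, the counts below describe them and do not test the set. Over all kept cells, 5 of the 8 genes changed at 3 h, of which 3 rose and 2 fell. For comparison, 19.7% of all 12042 genes tested rose at 3 h and 19.2% fell. At 24 h, 1 of 8 rose and 3 fell, against 14.5% of all genes higher and 13.8% lower. At 72 h, 2 of the other 7 fell, against 18.9% of all genes higher and 18.5% lower. The largest of these called changes was the 1.58-fold rise of *Pnp* at 3 h, and the others were at most 1.36-fold.

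**Figure D1:**
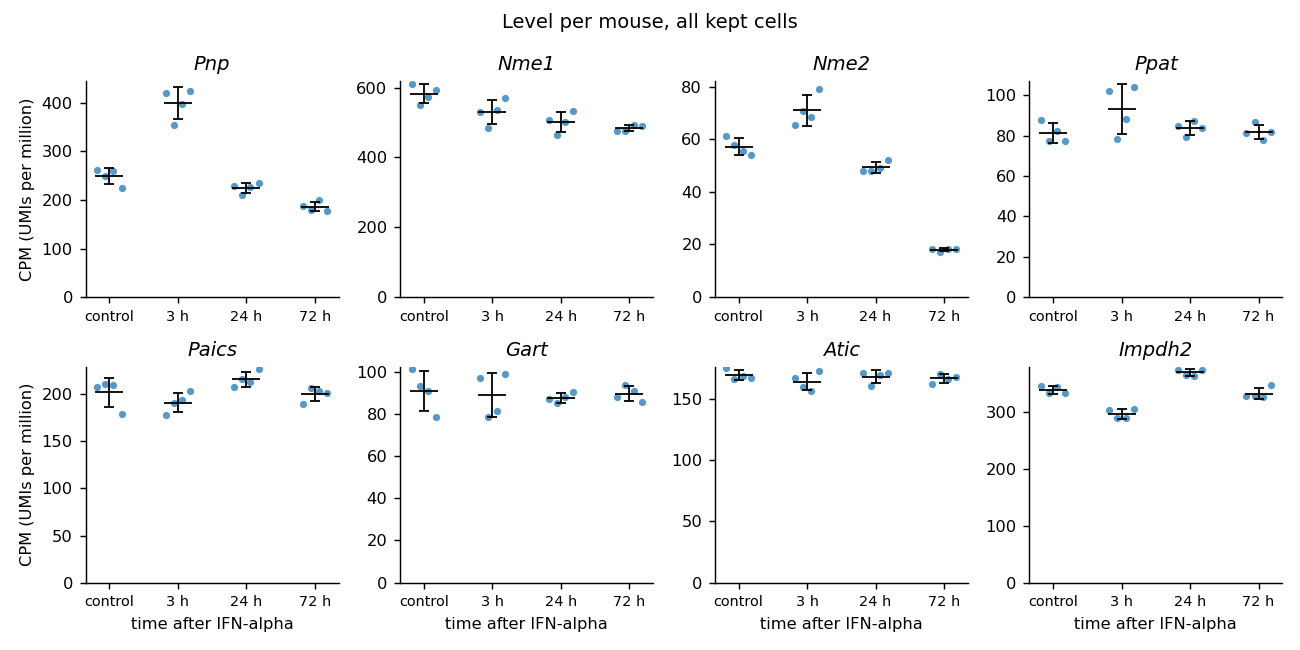
Levels of the 8 genes per mouse over all kept cells, in CPM, against time after IFNα. Points are mice and bars are the mean ± SD of 4 mice. *Pnp* stood between 354 and 425 at 3 h and at no more than 262 in every other mouse, and *Nme2* stood between 17.1 and 18.4 at 72 h and at no less than 47.8 in every other mouse.

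*Pnp*, the salvage phosphorylase, rose early and then fell below control. In the control mice its level was 262, 250.3, 259 and 224 CPM. At 3 h it was 421, 354, 398 and 425 CPM, so every treated mouse was above every control mouse. At 24 h it was 229, 211, 226 and 236 CPM and at 72 h 188, 180.3, 199 and 177 CPM, where the 24 h mice overlap with control and the 72 h mice lie below it. The 3 h rise was 1.58-fold (log2 0.66 ± 0.05, edgeR adjusted p = 1.36e-09) and stayed called in all 17 alternatives of the processing, between 0.51 and 0.94. The 24 h fall was -0.17 ± 0.05 (edgeR adjusted p = 0.0244), but its edgeR adjusted p was 0.0899 without control mouse 1, 0.0809 without control mouse 3 and 0.098 without 24 h mouse 2, and its sign turned to 0.062 (edgeR adjusted p = 0.65) with clusters at their control shares. By 72 h the fall was -0.44 ± 0.05 (1.36-fold lower, edgeR adjusted p = 1.95e-06), and -0.15 (edgeR adjusted p = 0.149) with clusters at their control shares. *Pnp2*, the neighbouring relative, was counted at 3.48 to 7.31 CPM in control and at 2.69 to 3.84 CPM at 72 h.

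The early rise of *Pnp* was called in each of the 5 classes. In HSC-like cells, *Pnp* went from 179, 169, 199.9 and 153 CPM in control to 436, 312, 393 and 400.2 CPM at 3 h, a log2 change of 1.08 ± 0.09 (2.11-fold, edgeR adjusted p = 1.44e-12). LMPP-like cells had 143, 168 and 159.6 CPM in the 3 control mice with enough cells and 349, 374, 356 and 359 CPM at 3 h, the largest change of the gene over classes (1.20 ± 0.07, 2.29-fold, edgeR adjusted p = 7.67e-15). None of the groups overlapped in these classes. The rise was 0.65 ± 0.07 in myeloid progenitor-like, 0.74 ± 0.11 in erythroid progenitor-like and 0.76 ± 0.10 in MK progenitor-like cells, with edgeR adjusted p of 2.12e-09, 6.41e-06 and 1.34e-07. The difference of the rise between classes, taken within each mouse and tested with limma, was -0.38 ± 0.12 for myeloid progenitor-like minus HSC-like (limma adjusted p = 0.0825) and -0.32 ± 0.10 for erythroid progenitor-like minus HSC-like (limma adjusted p = 0.134). Neither passed, but the first passed without control mouse 4 (-0.46, limma adjusted p = 0.00899) and without 3 h mouse 2 (-0.46, limma adjusted p = 0.0425).

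At 24 h no class had a called change of *Pnp*, with values between -0.18 and 0.19. At 72 h *Pnp* fell in HSC-like cells (-0.30 ± 0.09, edgeR adjusted p = 0.041) and in myeloid progenitor-like cells (-0.35 ± 0.07, edgeR adjusted p = 0.000318). The HSC-like call rested on every mouse at 72 h and on control mice 1 and 3, since without any of these the edgeR adjusted p lay between 0.0652 and 0.279. In myeloid progenitor-like cells, control mouse 4, with 16 cells of this class, stood at 207 CPM and the other control mice at 297 to 300.1 CPM, while the 72 h mice stood at 198 to 243 CPM. With the clusters of this class at their control shares the value was -0.11 (edgeR adjusted p = 0.61). The 72 h changes of *Pnp* in LMPP-like (0.00 ± 0.07), erythroid progenitor-like (-0.17 ± 0.11) and MK progenitor-like cells (-0.18 ± 0.09) did not pass.

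*Nme2* is the kinase for which the set was chosen. Its level was 61.2, 57.9, 55.7 and 53.9 CPM in the control mice and 65.6, 70.9, 68.5 and 79.1 CPM at 3 h. It was 47.8, 47.98, 49.3 and 52.2 CPM at 24 h and 18.2, 17.1, 18.1 and 18.4 CPM at 72 h. The 3 h mice lay above, the 24 h mice below and the 72 h mice far below control, with no overlap between any of these groups and control. The early rise was 0.29 ± 0.06 (1.22-fold, edgeR adjusted p = 0.000328) and the 24 h fall -0.23 ± 0.05 (1.17-fold lower, edgeR adjusted p = 0.00249), and both were called in all 17 alternatives. The 72 h difference, given without a test, was -1.69 ± 0.06 (3.22-fold lower), between -1.71 and -1.58 over 17 alternatives. It rested on 791 UMIs of *Nme2* at 72 h against 3310 in control.

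The low level of *Nme2* at 72 h was found in every class. HSC-like cells had 44.7, 31.8, 40.3 and 45.9 CPM in control and 13.7, 15.7, 14.6 and 13.7 CPM at 72 h (-1.46 ± 0.16). LMPP-like cells went from 51.4, 50.3 and 50.3 to 19.4, 19.6, 25.2 and 18.7 CPM (-1.28 ± 0.12) and myeloid progenitor-like cells from 73.9, 66, 72.1 and 56 to 23.3, 21.8, 20.8 and 24.7 CPM (-1.63 ± 0.09). In each of these classes the highest mouse at 72 h was below the lowest control mouse. The erythroid progenitor-like cells went from 45.9, 56.6 and 39.1 to 19.6, 6.14, 15.04 and 14.7 CPM (-1.71 ± 0.20, from 77 UMIs at 72 h) and the MK progenitor-like cells from 56.98, 64.6 and 46.2 to 20.3, 21.9, 16.3 and 23.5 CPM (-1.43 ± 0.17). The differences between classes at 72 h were -0.12 ± 0.16 for myeloid progenitor-like and -0.40 ± 0.30 for erythroid progenitor-like minus HSC-like cells. The first of them turned to 0.015 without control mouse 2. The second ranged from -0.60 to -0.045 over its alternatives. In it, 72 h mouse 2 had a within-mouse log2 difference of -1.20 and the other 72 h mice 0.046 to 0.48. At 3 h *Nme2* rose in LMPP-like cells (0.74 ± 0.11, edgeR adjusted p = 3.72e-06), in HSC-like cells (0.48 ± 0.14, edgeR adjusted p = 0.00977) and in myeloid progenitor-like cells (0.26 ± 0.08, edgeR adjusted p = 0.0152). The 3 h values in erythroid progenitor-like (0.43 ± 0.18, edgeR adjusted p = 0.128) and MK progenitor-like cells (0.24 ± 0.16, edgeR adjusted p = 0.41) were not called. The former passed without control mouse 2 (0.56, edgeR adjusted p = 0.0404). The HSC-like call was lost without control mouse 2 (edgeR adjusted p = 0.0687), with total UMIs in place of TMM factors (0.26, edgeR adjusted p = 0.147) and with the trend of change over transcript length removed (0.34, edgeR adjusted p = 0.0815), which was added for classes after the data were seen. The myeloid call was lost without control mouse 2 (0.0657) or 3 h mouse 4 (edgeR adjusted p = 0.113). It was also lost with total UMIs (0.12, edgeR adjusted p = 0.24), with the length trend removed (0.16, edgeR adjusted p = 0.14) and with the clusters of this class at their control shares (0.16, edgeR adjusted p = 0.264). At 24 h no class had a called change of *Nme2*. The values were -0.04 ± 0.13 in HSC-like, 0.01 ± 0.10 in LMPP-like and -0.16 ± 0.06 in myeloid progenitor-like cells. Erythroid progenitor-like cells had -0.21 ± 0.15 and MK progenitor-like cells -0.30 ± 0.13. The myeloid fall passed with total UMIs (edgeR adjusted p = 0.0191) and with the length trend removed (edgeR adjusted p = 0.0214).

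**Figure D2:**
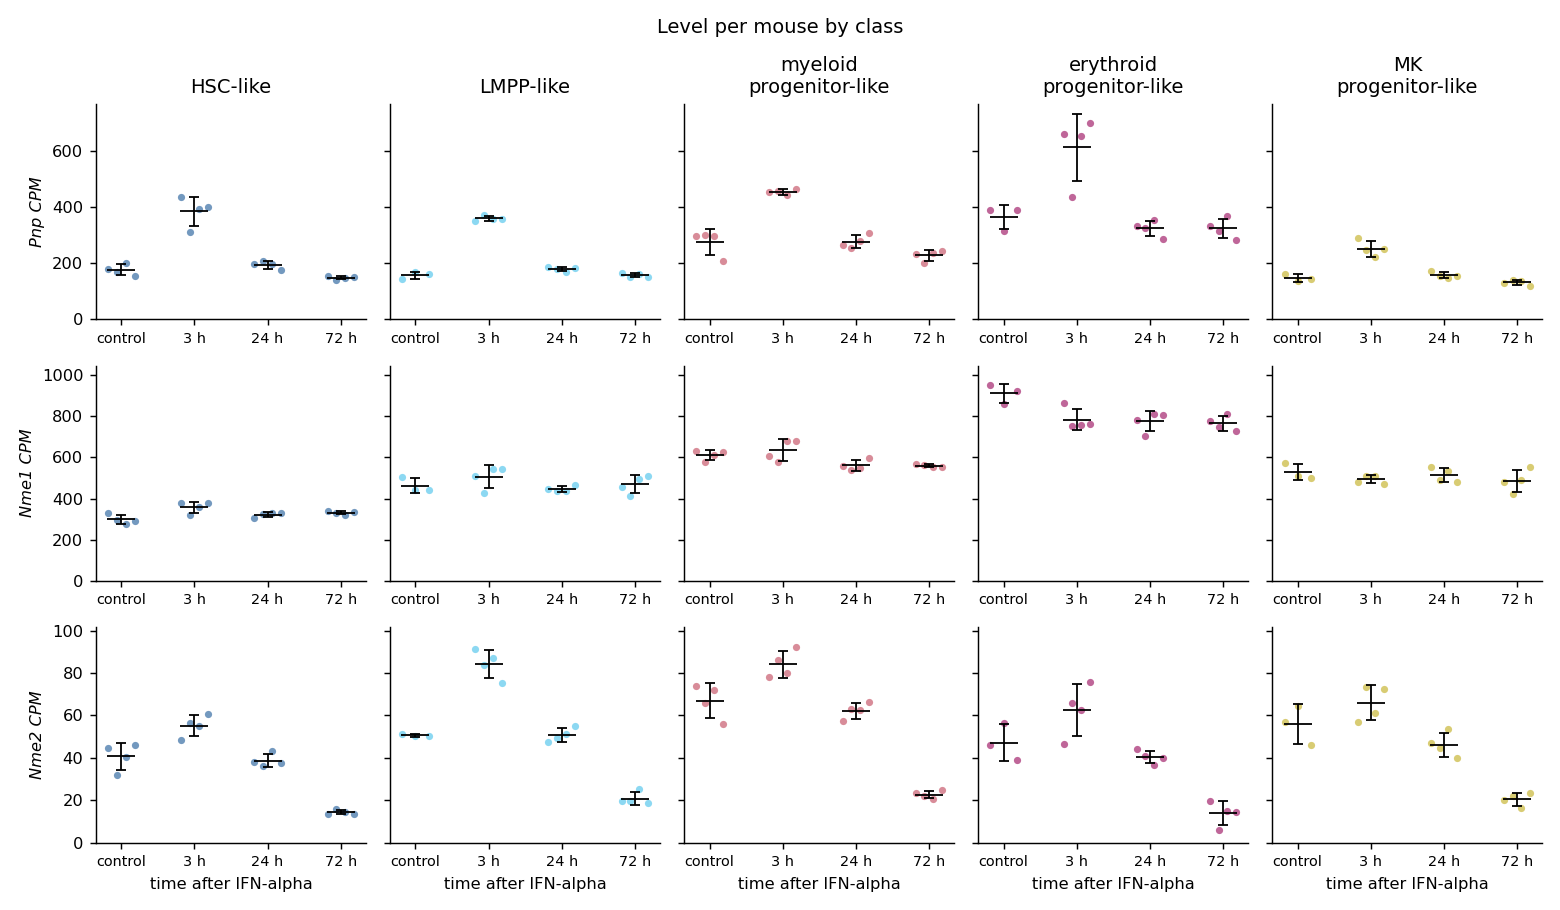
Levels of *Pnp*, *Nme1* and *Nme2* per mouse in the 5 classes, in CPM, against time after IFNα. Points are mice with at least 10 cells of the class and bars are the mean ± SD. *Nme2* at 72 h lay between 6.14 and 25.2 CPM in all classes, and *Pnp* at 3 h lay above its control mice in all classes.

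The 3′ end of *Nme2* is hard to tell from other transcripts. Of its 1171 exon bases 573 belong to *Gm20390* too, and the first 5 bases from its 3′ end, in capitals above, are the only ones before the shared stretch begins. Of the 31-base windows in the last 500 bases of its transcripts, 98.9% also occur in a transcript of another gene. *Gm20390* itself was counted at no more than 0.218 CPM in any mouse. It has 0 exon bases of its own and shares 100% of its windows, so this count cannot show its level. The share of such windows was 34.6% for *Nme1*, 46.7% for *Impdh2*, 27.5% for *Pnp*, 8.54% for *Paics*, 2.95% for *Atic*, 0.517% for *Ppat* and 0 for *Gart*. Cell Ranger counts a read only where it maps to the exons of a single gene, so a gene with much shared sequence is counted from few positions. *Pnp2* shared 35.7% of its windows. How many reads of *Pnp*, *Pnp2*, *Nme1* and *Nme2* were left out for this reason is uncertain.

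Over all genes tested, changes past 2-fold in either direction were more frequent with over 50% of windows shared than with fewer. At 72 h they were 2.91% of 6437 genes with no shared window, 2.12% of 5224 genes with up to 50%, 16.9% of 266 genes with up to 90% and 31.5% of 89 genes above 90%. The corresponding shares were 6.91, 6.47, 22.6 and 39.3% at 3 h and 2.24, 1.99, 10.9 and 16.9% at 24 h. Falls alone past 2-fold were 80, 46, 17 and 9 genes in the same bins at 72 h. They were 159, 64, 6 and 4 genes at 3 h and 65, 21, 5 and 4 genes at 24 h. Among 7861 genes tested in all 5 classes, 11 were below -1 in every class at 72 h, *Nme2* among them. Of these 11, 7 had over 50% shared windows, *Nme2* included, against 2.24% of the 7861. Above 1 in every class were 17 genes, of which 12 had over 50%. The other 10 genes below -1 included *Gng10*, *Gm9774*, *Rnaset2a*, *Rnaset2b*, *Timm23*, *Nutf2*, *Wdr89*, *Gm6133* and *Hspa1b*. These comparisons were made after the values were seen, and the part of shared sequence in the 72 h level of *Nme2* was not tested.

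**Figure D3:**
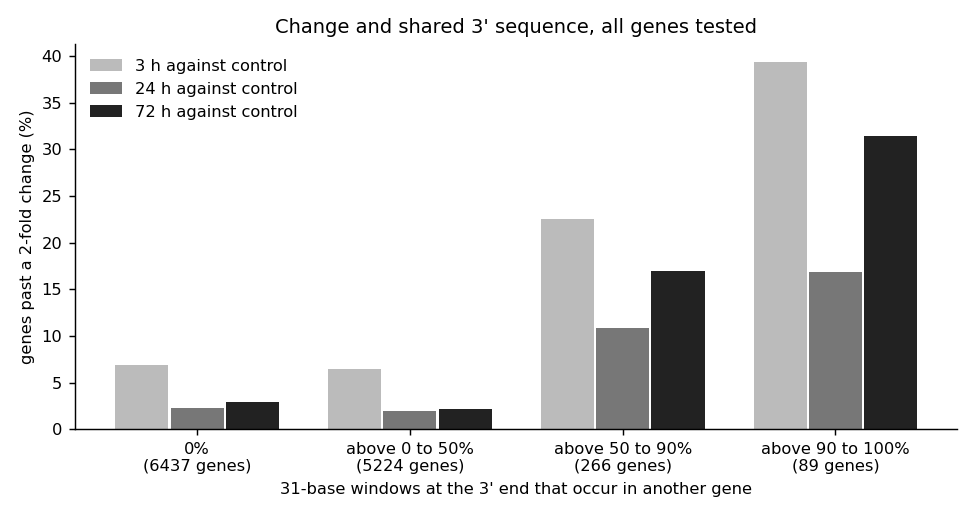
Share of genes past a 2-fold change (percent) against the share of 31-base windows at the 3′ end that occur in another gene, for 3 time points against control over all kept cells. Bars are shares of the genes tested in each bin, for changes in either direction. At 72 h they were 2.91, 2.12, 16.9 and 31.5% from left to right.

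*Nme1*, the neighbour and paralog of *Nme2*, did not share its 72 h level. It was counted at 612, 549.5, 574 and 594 CPM in control and at 529.6, 486, 535 and 571 CPM at 3 h. The 24 h mice had 507, 465, 501 and 534 CPM and the 72 h mice 477, 475, 494 and 491 CPM. The ranges at 24 h and 72 h lie below that of control, while the 3 h range overlaps with it. *Nme1* fell by 0.13 on the log2 scale at 3 h (SE 0.05, edgeR adjusted p = 0.0269), by 0.21 at 24 h (SE 0.04, edgeR adjusted p = 0.00128) and by 0.26 at 72 h (SE 0.05, edgeR adjusted p = 0.000105). The 3 h call was lost without control mouse 1 (edgeR adjusted p = 0.106) or 3 h mouse 2 (edgeR adjusted p = 0.0852), with DESeq2 (adjusted p = 0.0544) and in a fit of 3 h and control alone (edgeR adjusted p = 0.0802), and with clusters at their control shares the value was 0.029 (edgeR adjusted p = 0.652). At 72 h, clusters at their control shares gave -0.12 (edgeR adjusted p = 0.0543).

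Within classes, the called 3 h changes of *Nme1* had opposite signs, and neither call held in every alternative. HSC-like cells had 329, 298, 275 and 291 CPM in control and 377, 321, 359 and 377 CPM at 3 h, a rise of 0.25 ± 0.07 (edgeR adjusted p = 0.00641) in overlapping ranges. Erythroid progenitor-like cells had 952, 860.1 and 923 CPM in 3 control mice and 864, 752, 759 and 762 CPM at 3 h, a fall of -0.22 ± 0.07 (edgeR adjusted p = 0.0181). The fall in erythroid progenitor-like cells was -0.23 ± 0.06 at 24 h (edgeR adjusted p = 0.0118) and -0.25 ± 0.06 at 72 h (edgeR adjusted p = 0.012), where every treated mouse was below every control mouse. With total UMIs, which shifted the median of all genes in HSC-like cells by -0.22, the HSC-like value was 0.033 (edgeR adjusted p = 0.742), and with the length trend removed 0.20 (edgeR adjusted p = 0.0649). With the clusters of the class at their control shares the erythroid progenitor-like calls were lost at all 3 time points, with -0.13 at 3 h (edgeR adjusted p = 0.186), -0.17 at 24 h (edgeR adjusted p = 0.0865) and -0.20 at 72 h (edgeR adjusted p = 0.054). The 3 h fall was also lost with the length trend removed (-0.21, edgeR adjusted p = 0.0614). Each of these 4 calls was lost without some single mouse. These were control mouse 3 for HSC-like cells (edgeR adjusted p = 0.067), control mouse 1 or 3 h mouse 2 for erythroid progenitor-like cells at 3 h (0.074 and 0.0635), control mouse 1 or 24 h mouse 2 at 24 h (0.065 and 0.0694), and control mice 1 or 3 or 72 h mouse 4 at 72 h (0.0746, 0.0556 and 0.0575). The difference between the classes was itself called at 3 h. The level in erythroid progenitor-like over HSC-like cells of the same mouse was 1.501 to 1.73 in log2 CPM in the 3 control mice and 1.01 to 1.21 at 3 h, a difference of -0.46 ± 0.09 (limma adjusted p = 0.00533), or -0.39 (limma adjusted p = 0.0679) without control mouse 3. The other class values of *Nme1* were not called. At 24 h and 72 h they were 0.10 and 0.14 in HSC-like and -0.05 and 0.02 in LMPP-like cells. Myeloid progenitor-like cells had -0.12 at both times, which passed with total UMIs (edgeR adjusted p = 0.00737 and 0.0075). MK progenitor-like cells had -0.05 and -0.12. The 3 h values were 0.14 in LMPP-like, 0.07 in myeloid progenitor-like and -0.10 in MK progenitor-like cells.

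Of the 4 enzymes of de novo synthesis, only *Ppat* had a called change from control over all cells, a 1.13-fold rise at 3 h. *Ppat*, the first step, had 88.03, 77.3, 82.2 and 77.4 CPM in control and 102, 78.3, 88.1 and 104 CPM at 3 h, a rise of 0.18 ± 0.07 (edgeR adjusted p = 0.0451) in overlapping ranges. This call was lost without any of control mice 2, 3 and 4 or 3 h mice 1 and 4, with edgeR adjusted p between 0.0654 and 0.213, and 3 h mouse 2, at 78.3 CPM, stood within the control range. With total UMIs in place of TMM factors, where the median of all genes shifted by -0.15 at 3 h, the value was 0.032 (edgeR adjusted p = 0.73), and with the length trend removed 0.13 (edgeR adjusted p = 0.182). The call was also lost with no filter on low counts (edgeR adjusted p = 0.0501) and with all barcodes of a single hashtag (edgeR adjusted p = 0.0666). *Paics* had 179 to 211 CPM in control, 178 to 203 at 3 h, 208 to 227 at 24 h and 189.9 to 207 at 72 h. *Gart* stood at 78.3 to 101 CPM in control and 78.7 to 98.7, 85.02 to 90.4 and 85.6 to 93.7 CPM at the 3 time points. *Atic* stood at 166 to 175 CPM in control and 157 to 172, 160.1 to 171 and 162 to 170.4 CPM thereafter. These 3 genes had no called change from control in the sum over all cells, and their ranges overlapped with control at every time point. With total UMIs the 3 h falls of all 3 passed: *Paics* (-0.25, edgeR adjusted p = 5.93e-05), *Gart* (-0.23, edgeR adjusted p = 0.00642) and *Atic* (-0.20, edgeR adjusted p = 0.000169). With the length trend removed *Paics* passed too (-0.16, edgeR adjusted p = 0.00796). It also passed without control mouse 4 (-0.13, edgeR adjusted p = 0.0211) or without 3 h mouse 4 (-0.14, edgeR adjusted p = 0.0356).

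In the classes, changes of these 4 genes were called in myeloid progenitor-like cells at 3 h only. *Ppat* rose from 78.8, 78.5, 81.2 and 86.1 CPM to 105, 77.9, 92.5 and 112 CPM (0.30 ± 0.08, edgeR adjusted p = 0.00493), a call lost without 3 h mouse 4 (edgeR adjusted p = 0.0693), with total UMIs (0.17, edgeR adjusted p = 0.118) and with the clusters of this class at their control shares (0.18, edgeR adjusted p = 0.235). *Paics* fell from 192, 199.6, 191 and 170.1 CPM to 151, 171, 174 and 176 CPM (-0.20 ± 0.06, edgeR adjusted p = 0.0179), a call lost without control mouse 2 (0.0721) or 3 h mouse 1 (edgeR adjusted p = 0.112) and with DESeq2 (adjusted p = 0.0514). In LMPP-like cells *Paics* stood at 237, 230.5 and 229 CPM in control and 199, 191, 193 and 224 CPM at 3 h (-0.21 ± 0.07, edgeR adjusted p = 0.0543). *Gart* in erythroid progenitor-like cells was at 122, 120.3 and 116 CPM in control and 97.99, 100.4, 91.1 and 107 CPM at 3 h (-0.28 ± 0.11, edgeR adjusted p = 0.0807). Both missed the threshold although their ranges did not overlap. With total UMIs both passed, *Paics* at -0.36 (edgeR adjusted p = 0.000354) and *Gart* at -0.49 (edgeR adjusted p = 0.00107). *Paics* in LMPP-like cells also passed with the clusters of the class at their control shares (-0.26, edgeR adjusted p = 0.0139). The same held with no filter on low counts (edgeR adjusted p = 0.0374) and without 3 h mouse 4 (edgeR adjusted p = 0.0225).

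*Impdh2*, the enzyme of the GMP branch, went down and up again. It had 345, 333, 344 and 332 CPM in control and 302, 288, 288 and 304 CPM at 3 h. The 24 h mice had 374, 365, 363 and 374 CPM and the 72 h mice 328, 327, 326 and 346 CPM. All 3 h mice were below and all 24 h mice above control, and the 72 h mice overlapped with it. *Impdh2* fell by 0.20 on the log2 scale at 3 h (SE 0.03, 1.15-fold lower, edgeR adjusted p = 3.7e-05) in all 17 alternatives, and rose by 0.12 ± 0.03 at 24 h (1.09-fold, edgeR adjusted p = 0.0059). With clusters at their control shares the 24 h value was 0.10 (edgeR adjusted p = 0.0664), and with the length trend removed 0.076 (edgeR adjusted p = 0.158). The 3 h fall was called in myeloid progenitor-like (-0.20 ± 0.05, edgeR adjusted p = 0.00217) and LMPP-like cells (-0.23 ± 0.06, edgeR adjusted p = 0.0106), the latter not without control mouse 1 (0.0865) or 3 h mouse 3 (edgeR adjusted p = 0.0592). In erythroid progenitor-like cells the 3 h value was -0.20 ± 0.08 (edgeR adjusted p = 0.0932). It was called with the clusters of the class at their control shares (-0.29, edgeR adjusted p = 0.011). HSC-like (-0.11 ± 0.07) and MK progenitor-like cells (-0.05 ± 0.07) had no called change at 3 h. With total UMIs the 3 h fall passed in HSC-like, erythroid progenitor-like and MK progenitor-like cells (edgeR adjusted p = 0.000137, 0.0002 and 0.0369). At 24 h the rise was called in myeloid progenitor-like cells, from 316, 310.4, 327 and 347 CPM to 354, 357, 373 and 356 CPM (0.17 ± 0.04, edgeR adjusted p = 0.00404). With the clusters of this class at their control shares it was 0.09 (edgeR adjusted p = 0.393), and with the length trend removed 0.14 (edgeR adjusted p = 0.0515). The 24 h values in HSC-like (0.18 ± 0.06, edgeR adjusted p = 0.082) and MK progenitor-like cells (0.20 ± 0.06, edgeR adjusted p = 0.0877) were not called. Their ranges did not overlap with control. LMPP-like (0.14 ± 0.06) and erythroid progenitor-like cells (0.01 ± 0.07) had no called change at 24 h.

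**Figure D4:**
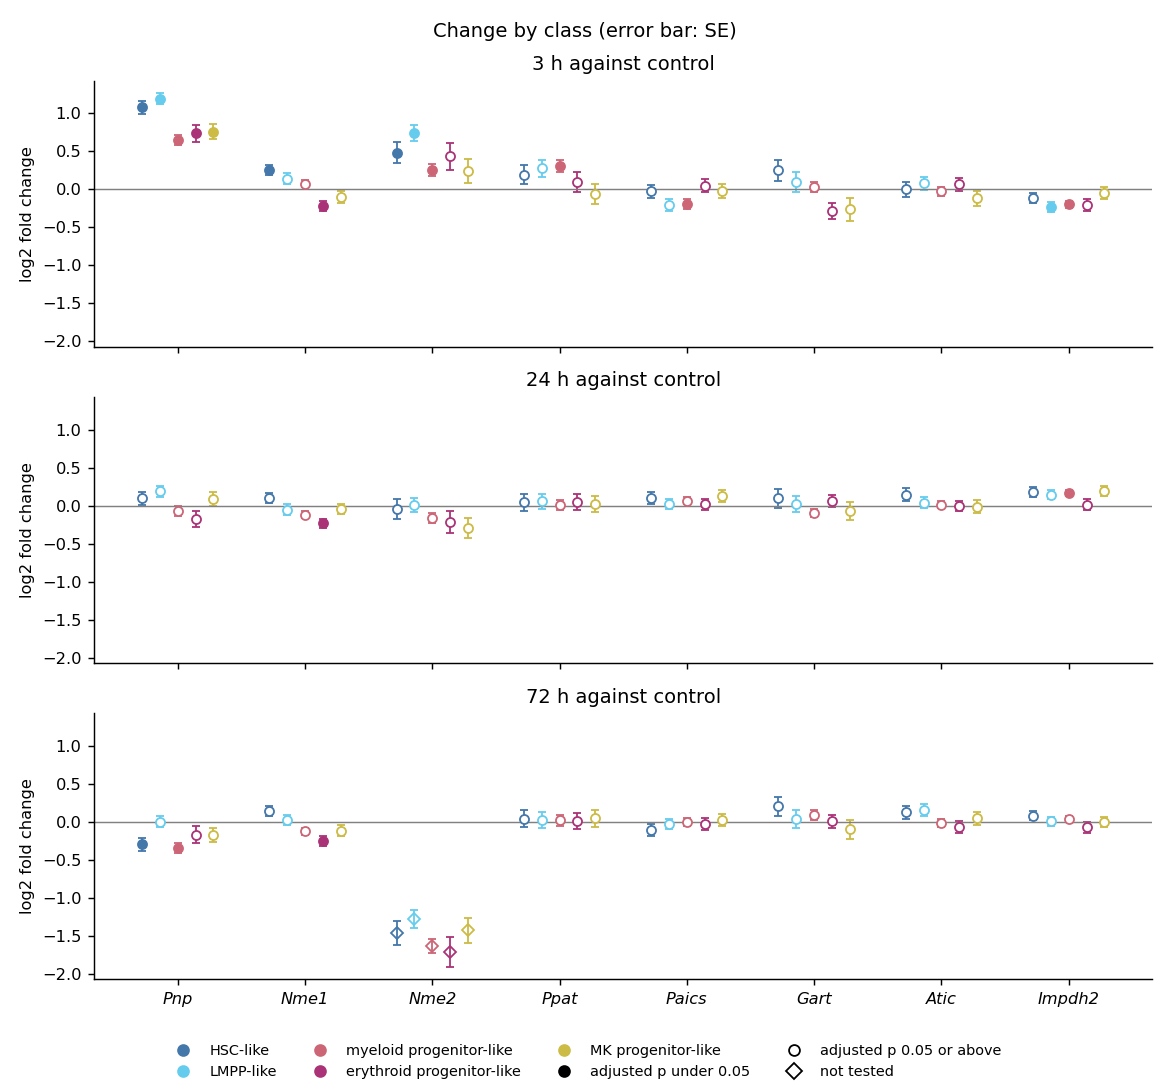
Log2 fold change of the 8 genes against control in the 5 classes at 3 h, 24 h and 72 h, with the SE as error bar. Filled circles have an edgeR adjusted p under 0.05, open circles do not, and diamonds were not tested. *Pnp* lies between 0.65 and 1.20 in all classes at 3 h, and *Nme2* between -1.71 and -1.28 at 72 h.

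Over the 5 classes, 14 of 40 tests of a gene in a class were called at 3 h (10 higher, 4 lower), 2 of 40 at 24 h and 3 of 35 at 72 h. In HSC-like cells 3 of 8 genes were called at 3 h, where 19.6% of all genes were. For the LMPP-like class this was 3 of 8 against 16.6%, for the myeloid progenitor-like class 5 of 8 against 24.4%, for the erythroid progenitor-like class 2 of 8 against 13.2% and for the MK progenitor-like class 1 of 8 against 10.5%. At 24 h only *Impdh2* in myeloid progenitor-like and *Nme1* in erythroid progenitor-like cells were called, against 5.41% of all genes in HSC-like, 5.3% in LMPP-like, 15.9% in myeloid progenitor-like, 9.69% in erythroid progenitor-like and 3.67% in MK progenitor-like cells. The 3 calls at 72 h, *Pnp* in HSC-like and myeloid progenitor-like and *Nme1* in erythroid progenitor-like cells, stand beside 5.2%, 5.47%, 15.5%, 5.02% and 3.96% of all genes in the same order of classes. At an unadjusted p under 0.05, edgeR gave 19, 9 and 5 of these tests. Of all genes at 3 h, 24 h and 72 h, 3021, 1622 and 1662 of 9814 had such a p in HSC-like cells. The LMPP-like class had 2662, 1579 and 1613 of 9548 and the myeloid progenitor-like class 3365, 2763 and 2672 of 9711. For the erythroid progenitor-like class these were 2057, 1935 and 1468 of 8466, and for the MK progenitor-like class 1862, 1225 and 1348 of 8830.

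The tests of a difference between classes called *Nme1* alone. Between myeloid progenitor-like and HSC-like cells, limma called 0 of 8 genes at 3 h and 24 h and 0 of 7 at 72 h, with 3, 1 and 1 at an unadjusted p under 0.05, against 3.07%, 0.902% and 0.264% of all genes called. Between erythroid progenitor-like and HSC-like cells it called 1, 0 and 0, with 3, 2 and 1 at an unadjusted p under 0.05, against 1.27%, 0.134% and 0% of all genes. At 72 h this last comparison called none of 8204 genes and 487 had an unadjusted limma p under 0.05. At 3 h and 24 h, 1286 and 677 of the 8204 had such a p. For myeloid progenitor-like minus HSC-like cells these were 1656, 959 and 975 of 9093 genes at 3 h, 24 h and 72 h.

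The control levels differed between classes, as a description of clusters built from the same cells. *Nme1* was highest in erythroid progenitor-like cells (912 ± 46.9 CPM, SD, n = 3) and lowest in HSC-like cells (298 ± 22.9 CPM, n = 4), a 3.06-fold span, where only the MK progenitor-like (529 ± 40.3 CPM) and LMPP-like levels (463 ± 37.0 CPM) overlapped. *Pnp* followed with a 2.48-fold span, from 364 ± 42.8 CPM in erythroid progenitor-like and 275 ± 45.7 CPM in myeloid progenitor-like cells to 147 ± 13.4 CPM in MK progenitor-like cells, whose mice overlapped with the LMPP-like and these with the HSC-like mice. *Gart*, *Atic*, *Ppat* and *Impdh2* were also highest in erythroid progenitor-like and lowest in HSC-like cells, with spans of 1.96-fold, 1.78-fold, 1.59-fold and 1.51-fold. *Paics* was highest in LMPP-like cells (232 ± 4.31 CPM) next to overlapping erythroid progenitor-like cells, with the lowest mean in HSC-like cells (183 ± 22.8 CPM), a 1.27-fold span. *Nme2* was highest in myeloid progenitor-like (67.0 ± 8.09 CPM) and lowest in HSC-like cells (40.7 ± 6.41 CPM), and each class overlapped with the next. HSC-like cells had the lowest mean of 7 of the 8 genes, *Pnp* being the exception. The sum of 30 G2/M genes moved with this order in part, with 536 to 771 CPM in HSC-like and 3509 to 4039 CPM in erythroid progenitor-like control cells, and its part in these levels was not tested.

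Between neighbouring time points, 4 of 8 genes changed from 3 h to 24 h, where 28.5% of all genes were called. *Pnp* fell by 0.83 on the log2 scale (SE 0.05, 1.77-fold, edgeR adjusted p = 2.23e-11) and *Nme2* by 0.52 (SE 0.06, edgeR adjusted p = 1.26e-07). *Impdh2* rose by 0.32 ± 0.03 (edgeR adjusted p = 3.82e-08) and *Paics* by 0.17 ± 0.05 (edgeR adjusted p = 0.00635). All 4 had no overlap between the 3 h and the 24 h mice. From 24 h to 72 h, 2 of the other 7 genes fell, against 9.08% of all genes called. These were *Pnp* (-0.27 ± 0.05, edgeR adjusted p = 0.00158) and *Impdh2* (-0.15 ± 0.03, edgeR adjusted p = 0.0022). With clusters at their control shares, an alternative added after the data were seen, these were -0.21 (edgeR adjusted p = 0.0607) and -0.10 (edgeR adjusted p = 0.106). *Nme2* was -1.46 ± 0.06 on the log2 scale at 72 h relative to 24 h, a 2.74-fold lower level given without a test. Both steps use the 24 h mice, so that their values are not independent.

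The other genes of nucleotide metabolism were followed in 6 lists of 72 genes, of which 66 were tested over all cells. At 3 h 11 of them (16.7%) rose and 16 (24.2%) fell, beside 19.7% and 19.2% of all genes. The 24 h mice had 7 rises (10.6%) and 16 falls (24.2%), beside 14.5% and 13.8%, and the 72 h mice 7 rises (10.6%) and 22 falls (33.3%), beside 18.9% and 18.5%. HSC-like cells, with 63 genes tested, had more rises than falls, and so had all genes in this class. In HSC-like cells 16 (25.4%) rose and 4 (6.35%) fell at 3 h, beside 13% and 6.66% of all genes in this class. At 24 h 4 (6.35%) rose and 0 fell, beside 4.04% and 1.38%, and at 72 h 4 (6.35%) rose and 1 (1.59%) fell, beside 3.54% and 1.66%. In LMPP-like cells 4 of 58 rose and 1 fell at 3 h, beside 10.6% and 5.96%. Erythroid progenitor-like cells had 3 and 1 of 59, beside 9.39% and 3.78%. MK progenitor-like cells had 2 and 2 of 60, beside 8.07% and 2.38%. Myeloid progenitor-like cells had 10 and 5 of 61 at 3 h, beside 13.9% and 10.5%. In them 2 rose and 13 (21.3%) fell at 24 h, where 8.99% and 6.94% of all genes did. At 72 h 1 rose and 13 (21.3%) fell there, where 8.26% and 7.26% did. The counts below are over all cells unless a class is named. They stand beside 19.7, 14.5 and 18.9% of all genes higher and 19.2, 13.8 and 18.5% lower at 3 h, 24 h and 72 h. For the rest of de novo purine synthesis, 6 genes were tested and 1 was higher (*Pfas*, 0.23 ± 0.06, edgeR adjusted p = 0.0066) and 1 lower (*Prpsap1*) at 3 h. Of the IMP to AMP and GMP branch, with 4 genes tested, *Adssl1* and *Impdh1* fell at 3 h, *Adssl1* fell at 24 h, and at 72 h *Adssl1* fell and *Adss* rose. *Adssl1*, an adenylosuccinate synthase, went from 91.4 to 129.9 CPM in control to 57.8 to 87.6 CPM at 3 h (-0.65 ± 0.09, edgeR adjusted p = 4.72e-06).

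Among 10 other nucleoside mono- and diphosphate kinases, 3, 3 and 4 fell at 3 h, 24 h and 72 h, and 1 (*Ak3*) rose at 72 h. *Nme3*, a further relative of *Nme2*, had the largest falls of all 6 lists, by 0.70 at 3 h (SE 0.20, edgeR adjusted p = 0.00853), 1.12 at 24 h (SE 0.17, edgeR adjusted p = 2.97e-05) and 1.93 at 72 h (SE 0.20, edgeR adjusted p = 2.18e-07). Its level was low, 5.37 to 12.2 CPM in control and 1.17 to 2.02 CPM at 72 h, and 80.3% of its 3′ windows occur in another gene. For purine salvage and breakdown, with 16 genes tested, 3 rose at 3 h and 2 at 24 h, while 5, 4 and 7 fell at 3 h, 24 h and 72 h. *Samhd1*, which breaks down deoxynucleotides and is known as an antiviral factor, rose at 3 h from 41.6 to 51.3 CPM in control to 153 to 175 CPM (1.89 ± 0.06, edgeR adjusted p = 3.56e-17). *Hprt* and *Aprt*, which salvage purine bases, fell at 3 h (-0.25 ± 0.05, edgeR adjusted p = 0.000363 and -0.16 ± 0.05, edgeR adjusted p = 0.0195), at 24 h (-0.15 ± 0.05, edgeR adjusted p = 0.018 and -0.20 ± 0.05, edgeR adjusted p = 0.00597) and at 72 h (-0.26 ± 0.05, edgeR adjusted p = 0.000223 and -0.25 ± 0.05, edgeR adjusted p = 0.000745). *Gda*, the guanine deaminase, fell by 0.66 at 3 h (SE 0.18, edgeR adjusted p = 0.00578), by 0.60 at 24 h (SE 0.15, edgeR adjusted p = 0.00409) and by 0.65 at 72 h (SE 0.16, edgeR adjusted p = 0.00269), and *Pnp2* fell by 0.81 at 72 h (SE 0.18, edgeR adjusted p = 0.00145). Within classes *Gda* was called only in myeloid progenitor-like cells at 24 h, where it fell. *Pnp2* was called only in erythroid progenitor-like cells at 3 h, where it rose.

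Of the genes that handle folate-bound carbon, with 8 tested, 2 rose at each time point and 2 fell at 72 h. *Aldh1l1* rose by 1.45 at 3 h (SE 0.19, edgeR adjusted p = 2.05e-06), by 0.87 at 24 h (SE 0.17, edgeR adjusted p = 0.000453) and by 0.69 at 72 h (SE 0.18, edgeR adjusted p = 0.00515), from 0.870 to 3.24 CPM in control. Of the classes, only HSC-like cells at 3 h had a called change of *Aldh1l1*, a rise. Pyrimidine and deoxynucleotide synthesis had 22 tested genes, of which 5, 3 and 3 rose and 5, 8 and 8 fell. *Cmpk2*, a nucleotide kinase known to be induced by interferon, rose by 3.95 at 3 h (SE 0.10, edgeR adjusted p = 1.61e-19), from 8.45 to 13.05 CPM in control to 129 to 158 CPM, and by 0.89 at 24 h (SE 0.10, edgeR adjusted p = 1.29e-06). *Upp1*, the uridine phosphorylase, rose by 0.73 at 24 h (SE 0.18, edgeR adjusted p = 0.00427) and by 0.66 at 72 h (SE 0.20, edgeR adjusted p = 0.0117). *Rrm2*, a subunit of ribonucleotide reductase used in S phase, fell by 0.48 at 24 h (SE 0.09, edgeR adjusted p = 0.000203), and *Rrm2b*, its relative used outside S phase, rose by 0.37 at 72 h (SE 0.10, edgeR adjusted p = 0.00618). *Upp1* and *Rrm2b* were called in no class, and not every listed gene passed the filter in each class. *Tyms* and *Tk1*, both cycle-dependent, fell at all 3 time points over all cells. In HSC-like cells *Tk1* rose at 3 h (0.83 ± 0.27, edgeR adjusted p = 0.0278) and 24 h (0.78 ± 0.24, edgeR adjusted p = 0.0497). *Rrm2* rose there by 0.99 at 3 h, 1.39 at 24 h and 1.01 at 72 h (edgeR adjusted p = 0.0371, 0.00119 and 0.0438), and *Rrm1*, the other subunit, by 0.53, 0.59 and 0.56 (edgeR adjusted p = 0.00774, 0.00212 and 0.0060).

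Cell cycle genes also changed over all cells. Most of the listed G2/M genes fell at every time point, and 14 of 30 S phase genes fell at 72 h. Of 30 G2/M genes, 25, 24 and 27 fell at 3 h, 24 h and 72 h, where 19.2%, 13.8% and 18.5% of all genes did, and their summed level was 2955 to 3284 CPM in control and 2479 to 2745, 2604 to 2758 and 2314 to 2404 CPM thereafter. Of 30 S phase genes, 6, 2 and 2 rose, beside the 19.7%, 14.5% and 18.9% of all genes that rose. The S phase falls were 3, 7 and 14, beside the 19.2%, 13.8% and 18.5% of all genes that fell. In HSC-like cells 17, 7 and 4 of the 30 rose at 3 h, 24 h and 72 h and none fell, where 13%, 4.04% and 3.54% of all genes rose, and their summed level was 1692 to 1759 CPM in control and 2265 to 2674 CPM at 3 h. The part of cell cycle and cell mix in the small changes of *Nme1*, *Pnp* and *Impdh2* over all cells was not tested beyond the fixed cluster shares given above.

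Among the 12042 genes tested, those whose log2 CPM over the 16 mice was most like *Pnp* were *Sap30* (Pearson r = 0.976), *Mrpl30* (0.971) and *Hmox2* (0.971). For *Nme2* these were *Phpt1* (0.971), *Rpl15* (0.943) and *Mcm7* (0.942). The mice of a time point share a library, so these values describe 4 libraries more than 16 independent points.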

How the data were processed

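Transcriptome and hashtag libraries of control and 3 h, 24 h and 72 h were measured with the 10x 3′ kit (v3.1). The authors aligned reads to mm10 with Cell Ranger 3.1.0 (named with Seurat in the submitters' processing notes) and deposited UMI counts per gene and barcode, without normalization. They also deposited, from Seurat, each barcode's hashtag counts, a margin score between hashtags (not used here) and its hashtag call. The gene annotation is not given in the sources used here. *Pnp* carries another identifier in GENCODE vM21 than in the files and was matched by symbol.

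The 8 members and all gene lists were chosen with earlier results of these data known. Barcodes with a single hashtag, at least 700 genes and at most 5% mitochondrial UMIs were kept, so that same-mouse doublets remained. Control cells were clustered with Scanpy 1.11.5 (500 variable genes, Leiden resolution 0.8), and labels were passed to the other libraries by mutual nearest neighbours. Of the transferred cells, 92.6% got the same cluster without this correction. Clusters took a class name from fixed markers.

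For each mouse, the UMIs of all kept cells, or of those of a class, were added up (classes with at least 10 cells of the mouse). edgeR 4.0.16 under R 4.3.3 (filterByExpr, TMM factors, quasi-likelihood F test, all 16 mice in 1 fit) gave the changes, and limma 3.58.1 (trend, prior count 2) the within-mouse differences between classes. SEs were taken from the fold change and the F statistic. Control mouse 4 had under 10 cells in the LMPP-like, erythroid progenitor-like and MK progenitor-like classes. DESeq2 1.42.0, other scalings, filters, labels, cluster shares and leaving out each mouse were alternatives. The fits over all cells, in HSC-like cells and of erythroid progenitor-like minus HSC-like cells were also run on simulated data with known changes. The outcome is not given here. The UMIs of a mouse, 1102706 to 26446327, set the precision, and with 4 mice per group small changes can be missed.

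Named genes were the 8 members, per time point the 3 largest called rises and falls over the other nucleotide lists, the 3 genes most like *Pnp* and *Nme2*, and genes sharing exons with a member. Other genes named from these lists, and those below -1 in every class at 72 h, were chosen after their values were seen. Some genes in these counts are not reported here by name. Windows of 31 bases in the last 500 bases of GENCODE vM21 transcripts were searched in all other genes. Promoters and positions came from RefSeq tables on GRCm38.p6, where all 8 members matched.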

Additional observations from a re-analysis of the deposited data

Results flagged for a closer look

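Of 83 groups of 4 mice, 6 had a mouse far from the other 3 by Dixon's test, which chance gives in about 1 in 20 groups. *Paics* over all cells was 179 CPM in control mouse 4 (58 cells) and 208 to 211 CPM in the other controls. *Pnp* in the myeloid progenitor-like cells of the same mouse was 207 CPM, against 297 to 300.1 CPM. *Atic* over all cells was 160.1 CPM in 24 h mouse 2, against 169 to 171 CPM. *Impdh2* over all cells was 346 CPM in 72 h mouse 4, against 326 to 328 CPM. *Nme2* in LMPP-like cells was 25.2 CPM in 72 h mouse 3, against 18.7 to 19.6 CPM. *Nme1* in erythroid progenitor-like cells was 864 CPM in 3 h mouse 1, against 752 to 762 CPM.

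The 3 h change of *Nme1* differed between erythroid progenitor-like and HSC-like cells, by -0.46 ± 0.09 (SE, limma adjusted p = 0.00533), lower in erythroid progenitor-like cells.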

How the results depend on the processing

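Of 37 called changes, 16 stayed called in all their alternatives. With every cluster at its control share, the count of called genes over all cells was 2 at 24 h (4 as reported), 0 at 72 h (2) and 0 from 24 h to 72 h (2) by edgeR, and the sign turned for *Nme1* at 3 h (0.029) and *Pnp* at 24 h (0.062). With the clusters of a class at control shares, the calls over classes were 0 at 24 h (2) and 1 at 72 h (3), and with total UMIs 4 at 24 h. *Nme2* in myeloid progenitor-like minus HSC-like cells at 72 h, not tested, ranged from -0.26 to 0.015 when 1 mouse was left out, with the positive value without control mouse 2. The cause was not tested.

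Leaving out 1 mouse at a time, the counts over all cells were 4 to 5 at 3 h, 3 to 4 at 24 h, 2 at 72 h, 4 to 6 from 3 h to 24 h and 2 from 24 h to 72 h. Over the classes they were 12 to 15, 1 to 3 and 1 to 4, and for differences between classes 0 to 2, 0 and 0. No paired analysis was possible because a hashtag number only names a mouse within its library.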
